A study of Mus musculus with 4 samples.

Results

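The genes described here are the Eph receptors and their ephrin ligands, the semaphorins with their plexin and neuropilin receptors, and the netrins with the receptors Dcc, neogenin and Unc5. They were matched by symbol in the deposited gene table, and 65 of its 24339 genes matched, 34 for ligands and 31 for receptors. The families themselves were chosen with earlier results of these data known, which limits the comparison of their calls with those of all genes. The libraries came from mouse kidney cells sorted by flow cytometry for GFP and labelled as mesenchymal nephron progenitors, the cells that give rise to the nephron. The first line, Six2TGC, makes a GFP-Cre fusion protein from a bacterial artificial chromosome (BAC) transgene. The second, Six2Cre, makes it from a Six2-T2A-GFP-Cre knock-in at Six2 itself, carried on a single allele per its genotype label (Six2 Cre/+). Cells of both lines therefore carry GFP-Cre, and no line without it is compared here. The series asks how GFP-Cre in these cells bears on their transcripts. There were 2 libraries per line and 4 in all. The labels give no age, no strain and no number of animals per library. The name of the deposited table contains E18, the usual notation for embryonic day 18. The labels do not tie the replicates of a line to different animals. The Six2TGC libraries differ in sex by Xist and so come from different animals, while the spread between the Six2Cre libraries may be technical.

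Eph receptors are receptor tyrosine kinases that bind ephrins on the surface of neighbouring cells. Ephrin-A ligands are tethered to the membrane by a lipid anchor and ephrin-B ligands cross it, so that signals can run in both directions and sort cells or set tissue boundaries. Semaphorins bind plexins, and most of the secreted class 3 semaphorins need a neuropilin as co-receptor, while the classes bound to the membrane mostly act on plexins directly. Netrins act through Dcc, neogenin and the Unc5 receptors. The families are best known from axon guidance, and in the developing kidney they are studied for their parts in ureteric bud branching, vessel growth and the shaping of nephron epithelium.

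The table gives FPKM, fragments per kilobase of transcript scaled to the size of each library, so levels of different genes can be set side by side per length. Six2TGC replicate 2 and the Six2Cre libraries had estimated depths of 0.958, 1.85 and 1.88 relative to Six2TGC replicate 1, so low values were measured less precisely in Six2TGC. The labels were checked on Six2, which stood at 749 and 816 FPKM in Six2TGC, against 545 and 533 in Six2Cre. Cited1, which marks uncommitted progenitors, stood at 109 and 94.6 in Six2TGC, against 907 and 878 in Six2Cre. Wnt4, a signal for nephron epithelium to form, stood at 110 and 120 in Six2TGC against 9.36 and 11.2 in Six2Cre. Markers of the sorted cell type were thus present in every library, with Cited1 lower and Wnt4 higher in Six2TGC. In RNA of sorted bulk cells, fewer cells of a kind and less RNA per cell cannot be told apart.

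All 65 members had a value above 0 in at least 1 library, and 60 had one in every library. Of these genes, 44 had a mean of at least 1 FPKM over the 4 libraries and were tested, and 21 were below it and were not. None of the 44 had a line mean under 1, so none passed the filter through a single line. Sema3f, a secreted semaphorin, and Efnb1, an ephrin-B ligand, were the most abundant. Sema3f averaged 145 ± 9.45 FPKM in Six2TGC, against 118 ± 1.59 in Six2Cre, and Efnb1 averaged 149 ± 5.69 and 76.2 ± 1.53 in the same order of lines (SD, n = 2 per line). Plxnb2, Sema4g and Ephb4 were the other members with a mean of at least 50 FPKM over all libraries. Levels ran from these down to traces for Epha10, Epha6, Plxnb3 and Sema3e. Efnb1 was the highest member in Six2TGC and ranked 3 in Six2Cre, where Sema3f and Sema4g stood above it. Sema3f and Efnb1 in Six2TGC had overlapping libraries, at 152 and 138 against 153 and 145, so their order there is not beyond the spread.

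**Figure D1:**
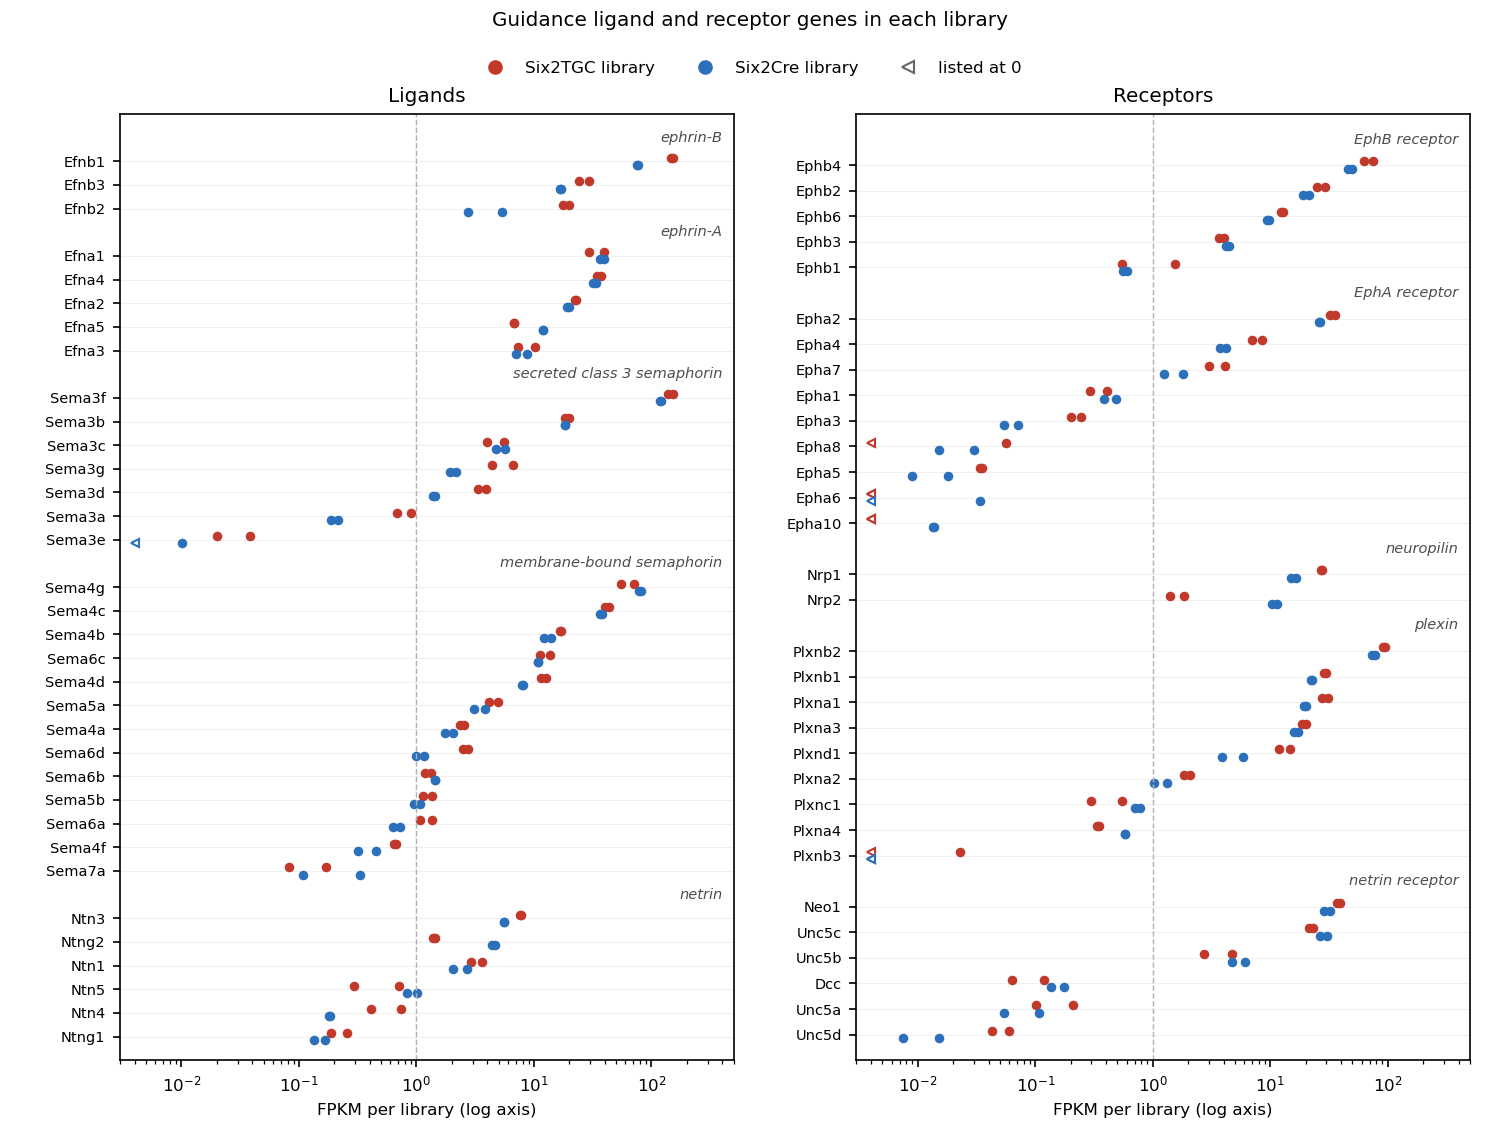
FPKM of every member in each library on a log axis, ligands left and receptors right, grouped by family, with Six2TGC libraries in red above Six2Cre libraries in blue. The dashed line marks the 1 FPKM of the filter (applied to the mean), and open triangles mark libraries listed at 0. The ephrin-B genes separate the lines upward in Six2TGC, and Nrp2 at 1.86 and 1.40 against 11.3 and 10.4 FPKM separates them downward.

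Between the lines, 22 of the 44 tested members were higher in Six2TGC, 4 were lower and 18 had no call (limma, Benjamini-Hochberg adjusted p under 0.05 over all 11917 genes tested). Among all tested genes, 24.3% were called, 10.8% higher and 13.5% lower, against 59.1% of the members, 50% higher and 9.09% lower. Of the tested members 34 had a positive fold change (77.3%, against 45.7% of all tested genes), and their median log2 fold change was 0.32 against -0.03 for all tested genes. Both Six2TGC libraries lay above both Six2Cre libraries for 33 members (75.0%, against 29.5% of all tested genes) and below them for 8 (18.2%, against 36.4%). Receptors and ligands both leaned upward, with 12 of 18 receptors higher and 2 lower, and 10 of 26 ligands higher and 2 lower. The rises were mostly modest. The ratio of mean FPKM was at least 2 for 6 of the 22 higher members, Efnb2, Plxnd1, Sema3g, Sema3d, Sema6d and Epha7, and under 1.5 for 11. The lower members were Nrp2, Ntng2, Efna5 and Unc5c.

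Under limma without trend and robust settings 15 of the 44 members were higher, where 7.93% of all tested genes were. Fewer members, and fewer of all tested genes, were called higher in every fit that left out 1 library. Each such fit rests on a lone library of that line. The median log2 fold change of tested members was 0.295 to 0.331 in those fits, against 0.316 with all 4 libraries. In the authors' deposited table, 14 of 46 members tested there were significantly higher and 3 lower, where 6.94% and 6.52% of all genes tested there were. Of those 17 members, 16 also had a limma call, and Plxna2 did not.

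**Figure D2:**
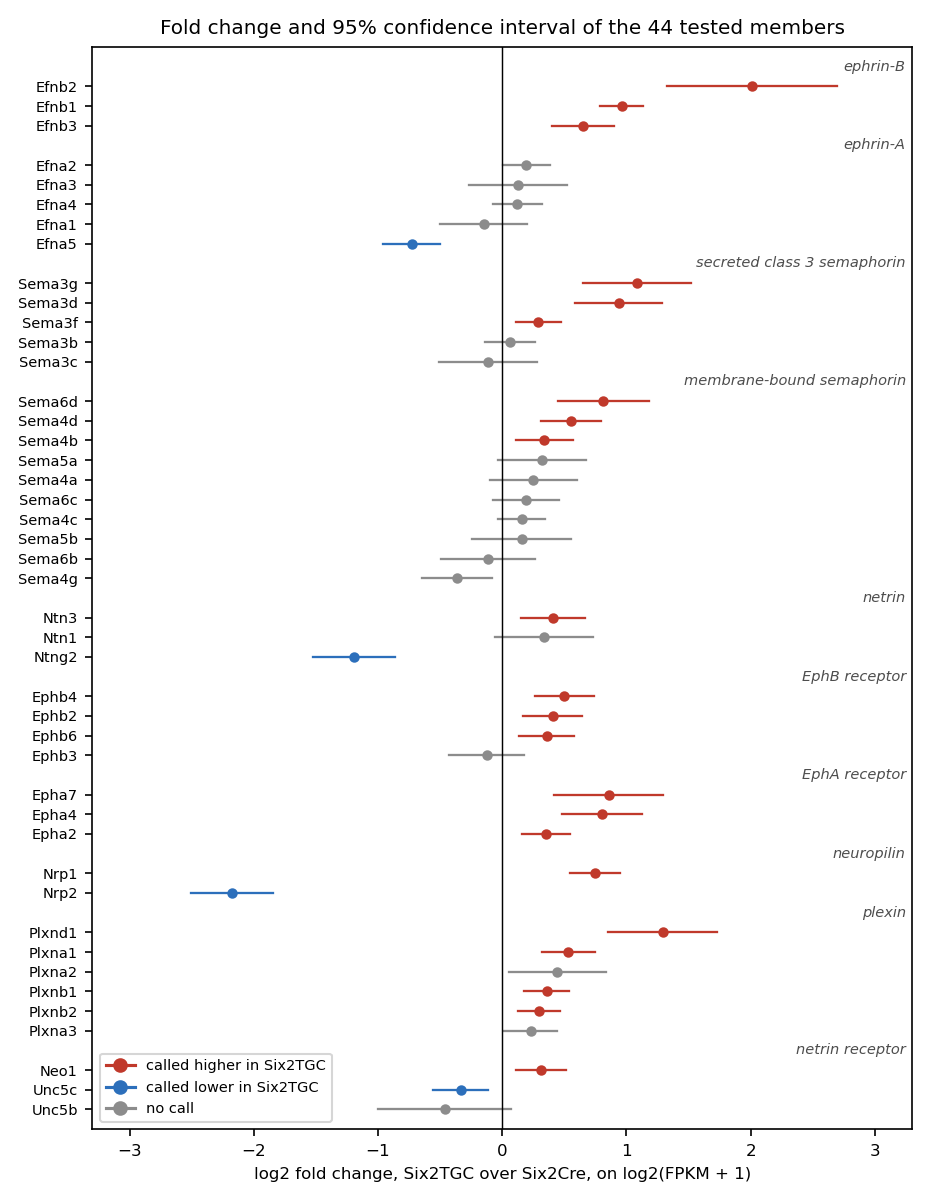
Log2 fold change of the 44 tested members, Six2TGC over Six2Cre on the log2(FPKM + 1) scale, as points with 95% confidence intervals from limma, by family. Red marks the 22 members called higher in Six2TGC, blue the 4 called lower and grey the 18 without a call. All 3 ephrin-B genes lie to the right of 0, and Nrp1 at 0.75 and Nrp2 at -2.18 lie on opposite sides.

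**Figure D3:**
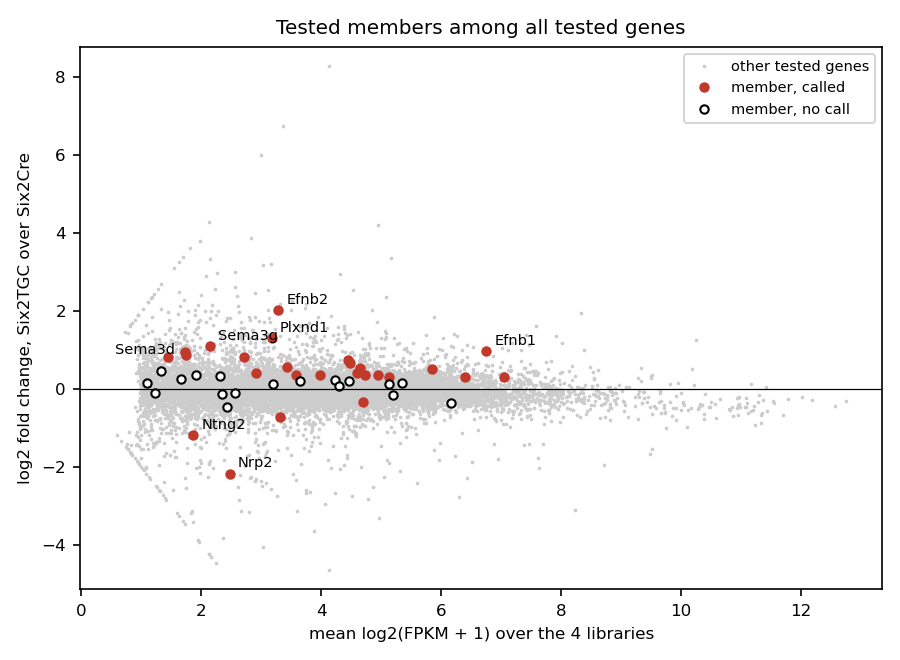
Log2 fold change, Six2TGC over Six2Cre, against mean log2(FPKM + 1) for all 11917 tested genes, with members in red where called and as open circles where not. Members spread over low and middling levels, with a median of 3.51 against 3.86 for all tested genes, and most lie above 0. Efnb2 at 2.01 and Nrp2 at -2.18 are the farthest from 0 among them.

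All 3 ephrin-B ligands rose in Six2TGC, and their summed level was 2.01-fold higher, at 195 ± 7.93 FPKM against 97.1 ± 3.18 in Six2Cre (SD, n = 2 per line). Efnb2, best known as a marker of arterial endothelium and the preferred partner of Ephb4, stood at 17.6 and 19.7 FPKM in the Six2TGC libraries, against 5.35 and 2.74 in the Six2Cre libraries. The lines did not overlap, and Efnb2 was 4.61-fold higher in Six2TGC with the largest log2 fold change of any tested member that rose (2.01 with SE 0.26, limma adjusted p = 0.00774). Its Six2Cre libraries differed from each other by more than those of Six2TGC. The Efnb2 call was lost without either Six2TGC library (limma adjusted p = 0.0791 and 0.0790), with a log2 fold change of 2.09 and 1.93. Efnb1, which lies on the X chromosome, stood at 153 and 145 in Six2TGC, against 77.3 and 75.1 in Six2Cre, a 1.96-fold rise (log2 fold change 0.96 with SE 0.07, limma adjusted p = 1.71e-04). Efnb1 is listed at 99136061 to 99149022 on that chromosome (mm10, plus strand) and Efnb2 at 8617439 to 8660773 on chromosome 8 (minus strand). The Efnb1 call held in all 4 fits that left out a library. Xist, transcribed from the inactive X, had 0.0107 FPKM in Six2TGC replicate 1, 75.7 in Six2TGC replicate 2 and 56.7 and 60.6 in Six2Cre. The Efnb1 values of the Six2TGC libraries lay close together. Efnb3, the remaining member of the class, stood at 29.6 and 24.4 in Six2TGC, against 16.6 and 16.9 in Six2Cre (1.61-fold higher, limma adjusted p = 0.00522). The Efnb3 call was lost without Six2Cre replicate 1 or 2 (limma adjusted p = 0.0643 and 0.0560). Efnb1 made up 76.4% and 76.7% of the summed ephrin-B level in Six2TGC, against 77.9% and 79.3% in Six2Cre, so it was the main ephrin-B transcript in both lines.

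The ephrin-A ligands did not move together. Efna5 fell to 6.80 and 6.74 FPKM in the Six2TGC libraries, against 11.8 and 11.9 in Six2Cre, with very little spread within a line. It was 1.75-fold lower (log2 fold change -0.73 with SE 0.10, limma adjusted p = 0.00233), and its call held in all 4 fits that left out a library. Efna5 lies on chromosome 17 at 62602957 to 62881317 (mm10, minus strand). The other ephrin-A genes had no call. Efna4 stood at 37.3 and 34.1 in Six2TGC, against 33.7 and 31.7 in Six2Cre, and Efna2 at 22.6 and 22.5 against 20.0 and 19.1. Efna1 and Efna3 overlapped between the lines, with 39.5 and 29.2 FPKM for Efna1 in Six2TGC against 36.3 and 39.4 in Six2Cre. Efna3 stood at 10.1 and 7.31 in Six2TGC against 8.65 and 7.05 in Six2Cre. Without Six2TGC replicate 1 Efna1 was called lower, at -0.36 (limma adjusted p = 0.0418). The summed ephrin-A level was 108 ± 11.8 in Six2TGC, against 110 ± 1.05 in Six2Cre. Ephrin-B genes made up 63.3% and 65.5% of all ephrin FPKM in Six2TGC against 47.3% and 46.5% in Six2Cre. The listed locus of Efna2 covers 47 other genes, so reads there may be shared.

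Among the Eph receptors, 6 of 7 tested genes rose in Six2TGC and none fell by the test. Ephb4, the most abundant Eph receptor and the known receptor of ephrin-B2, stood at 74.4 and 62.1 FPKM in Six2TGC, against 45.8 and 49.8 in Six2Cre (1.43-fold higher, limma adjusted p = 0.0122). Ephb2 stood at 25.0 and 29.0 in Six2TGC against 19 and 21.2 in Six2Cre, and Ephb6, whose kinase domain is catalytically inactive, at 12.7 and 12.4 against 9.35 and 9.79. Both rose, by 1.34-fold and 1.31-fold (limma adjusted p = 0.0266 and 0.0316). Ephb3 had no call, at 4.04 and 3.68 in Six2TGC, against 4.20 and 4.42 in Six2Cre, with a 95% interval of -0.43 to 0.18 for its log2 fold change. Ephb1 had a mean under the filter, at 1.53 and 0.548 in Six2TGC, against 0.598 and 0.559 in Six2Cre, and its libraries overlapped.

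The EphA receptors above the filter all rose. Epha4, which can bind ephrins of either class, stood at 6.93 and 8.53 FPKM in Six2TGC against 3.76 and 4.20 in Six2Cre (1.94-fold, limma adjusted p = 0.00626). Epha7 stood at 3.03 and 4.09 in Six2TGC against 1.80 and 1.24 in Six2Cre (2.35-fold, limma adjusted p = 0.0157). Epha2, the most abundant of the class, stood at 32.4 and 35.4 in Six2TGC against 26.7 and 26.0 in Six2Cre (1.29-fold, limma adjusted p = 0.0203). The larger relative changes were thus in the less abundant genes, and the summed EphA level was 45.8 ± 4.10 in Six2TGC against 32.4 ± 0.671 in Six2Cre (SD, n = 2 per line). The calls of Epha2, Epha7 and Ephb2 held in 1 of the 4 fits that left out a library, that of Ephb4 in 2, that of Epha4 in 3, and that of Ephb6 in none. The Ephb4 call was lost without Six2Cre replicate 1 or 2 (limma adjusted p = 0.120 and 0.0676). Epha1, Epha3, Epha5, Epha6, Epha8 and Epha10 were under 0.5 FPKM in every library. Of these, Epha3 stood at 0.201 and 0.245 in Six2TGC against 0.0541 and 0.0712 in Six2Cre and was not tested.

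The neuropilins went in opposite directions. Nrp2, the co-receptor through which Sema3f and Sema3g act, fell to 1.86 and 1.40 FPKM in the Six2TGC libraries, against 11.3 and 10.4 in Six2Cre. It was 6.66-fold lower, the largest change of any tested member (log2 fold change -2.18 with SE 0.14, limma adjusted p = 8.67e-05). Nrp1, the co-receptor for Sema3a and also a co-receptor for VEGF, stood at 26.9 and 27.6 in Six2TGC against 15.1 and 16.6 in Six2Cre, a 1.72-fold rise (log2 fold change 0.75 with SE 0.09, limma adjusted p = 0.00126). Both calls held in all 4 fits that left out a library. The summed neuropilin level was 28.9 ± 0.170 in Six2TGC, against 26.7 ± 0.442 in Six2Cre, so the sum differed far less than its parts. Nrp2 made up 6.46% and 4.83% of that sum in the Six2TGC libraries and 42.8% and 38.5% in the Six2Cre libraries. Nrp2 lies on chromosome 1 at 62703317 to 62818692 (mm10, plus strand) and Nrp1 on chromosome 8 at 128359073 to 128505475 (plus strand), both protein-coding. 4930487H11Rik, the other gene listed at the Nrp2 locus, was listed at 0 in all 4 libraries.

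**Figure D4:**
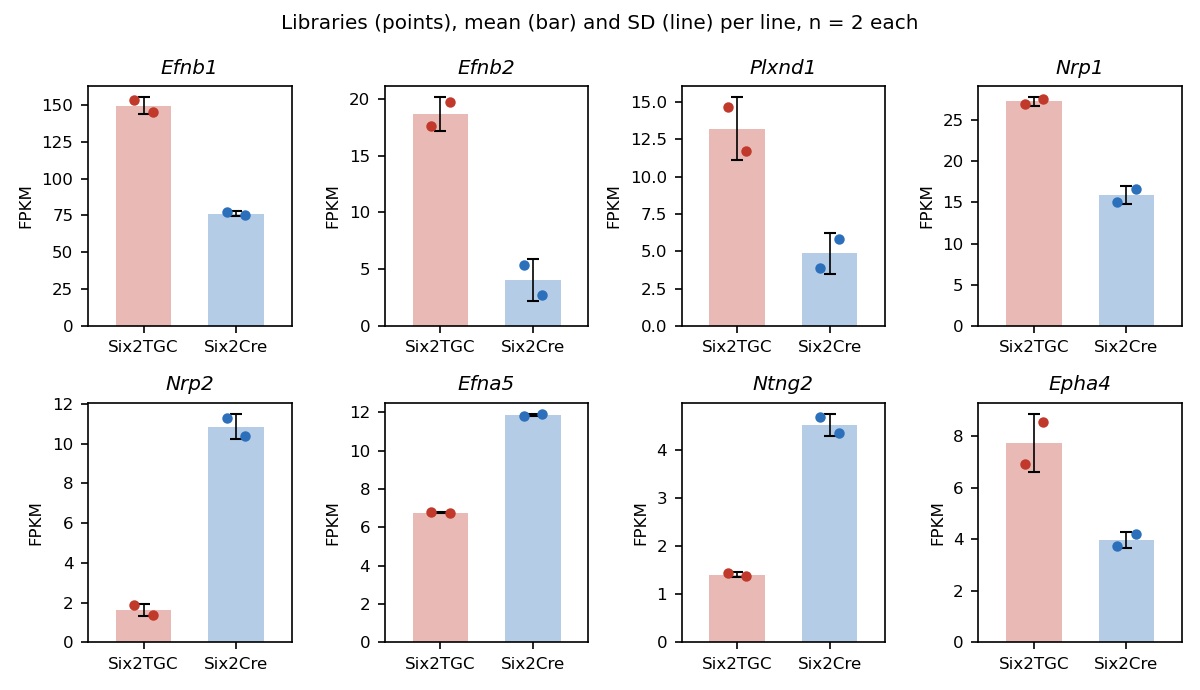
FPKM of 8 members in each library (points), with the mean (bar) and SD (line) of each line, n = 2, Six2TGC left of Six2Cre. Efnb1, Efnb2, Plxnd1, Nrp1 and Epha4 are higher in Six2TGC, and Nrp2, Efna5 and Ntng2 are lower. In none of the 8 do the lines overlap, but they were taken from the 26 called members, all of which lack overlap. Among all tested genes, both Six2TGC libraries lay above both Six2Cre libraries for 29.5% and below them for 36.4%.

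The stretches just before the transcription start are shown for the genes that changed most within the ephrin-B and neuropilin families. Epha2 is added as the only called member besides Nrp2 with a match to the letters described below. The share of printed stretches with a match is therefore not that of the members. They hold the 250 bases upstream of a RefSeq start (GRCm38.p6, the build also called mm10). Capitals mark a match to CTTTGAT or CTTTGAA on either strand, forms of the site bound by TCF and LEF factors, the DNA-binding effectors of Wnt signalling. Each is written 5′ to 3′ on the strand of its gene. The windows are chr1:62703067-62703316 (plus strand) for Nrp2, chr8:128358823-128359072 (plus) for Nrp1, chrX:99135811-99136060 (plus) for Efnb1, chr8:8661243-8661492 (minus) for Efnb2, upstream of the end listed for the gene, and chr4:141300971-141301220 (plus) for Epha2.
Nrp2: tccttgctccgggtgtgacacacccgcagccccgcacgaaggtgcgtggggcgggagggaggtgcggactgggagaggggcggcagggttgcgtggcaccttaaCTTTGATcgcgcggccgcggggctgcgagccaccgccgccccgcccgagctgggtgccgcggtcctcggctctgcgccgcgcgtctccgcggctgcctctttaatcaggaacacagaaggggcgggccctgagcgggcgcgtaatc
Nrp1: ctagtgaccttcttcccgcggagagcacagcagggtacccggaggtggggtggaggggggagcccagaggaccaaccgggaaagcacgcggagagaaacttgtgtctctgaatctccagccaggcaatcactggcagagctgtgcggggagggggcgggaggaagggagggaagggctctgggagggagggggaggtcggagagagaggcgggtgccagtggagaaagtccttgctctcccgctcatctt
Efnb1: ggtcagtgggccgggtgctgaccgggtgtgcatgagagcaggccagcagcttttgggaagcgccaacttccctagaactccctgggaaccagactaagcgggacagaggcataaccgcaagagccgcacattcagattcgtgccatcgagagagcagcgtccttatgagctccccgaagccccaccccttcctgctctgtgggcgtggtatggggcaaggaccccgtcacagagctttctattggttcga
Efnb2: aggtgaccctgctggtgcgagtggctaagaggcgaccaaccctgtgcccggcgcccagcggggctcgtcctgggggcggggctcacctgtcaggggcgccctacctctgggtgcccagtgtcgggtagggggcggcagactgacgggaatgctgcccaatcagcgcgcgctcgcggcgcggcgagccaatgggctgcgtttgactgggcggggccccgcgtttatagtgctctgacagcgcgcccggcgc
Epha2: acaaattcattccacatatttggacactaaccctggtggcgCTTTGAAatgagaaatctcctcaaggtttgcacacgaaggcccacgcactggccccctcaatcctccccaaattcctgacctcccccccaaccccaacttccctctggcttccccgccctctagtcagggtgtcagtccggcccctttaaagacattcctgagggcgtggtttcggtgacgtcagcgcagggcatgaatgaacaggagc
A match was found in 3 of the 56 members with such a window, Nrp2, Epha2 and Sema3e, against 8.63% of the 27025 genes in the table. Of 26 members called, 23 had a window and 2 a match, Nrp2 (which fell) and Epha2 (which rose). The Nrp2 match ends 139 bases before the start and the Epha2 match 202 bases before it. The remaining windows printed hold no such letters, which says nothing of sites farther away. The Nrp2 and Efnb2 windows were rich in G and C (72.4% and 72.0%), with 32 and 27 CpG pairs, and the Nrp1 window held 11 such pairs at 64.4%. Member windows had a median GC content of 64.4%, against 52.4% over all windows of the table. A match is a run of letters and not evidence of binding.

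Plexin receptors rose in Six2TGC as far as they were called, 4 of 6 tested with none lower. Plxnd1, the receptor that binds Sema3e without a neuropilin and is best known from blood vessels, stood at 14.7 and 11.7 FPKM in Six2TGC against 3.90 and 5.80 in Six2Cre. It was 2.72-fold higher (log2 fold change 1.29 with SE 0.18, limma adjusted p = 0.00425), and the call held in all 4 fits that left out a library. Plxnd1 lies on chromosome 6 at 115954811 to 115995005 (mm10, minus strand). Its ligand gene Sema3e was close to 0 in every library, at 0.0384 and 0.020 in Six2TGC, against 0 and 0.0102 in Six2Cre. Plxna1, a partner of neuropilins in class 3 signalling, stood at 27.3 and 31.0 in Six2TGC against 20.1 and 19.5 in Six2Cre (1.47-fold, limma adjusted p = 0.00626). Plxnb1, the receptor of Sema4d, stood at 29.5 and 28.7 in Six2TGC against 22.6 and 22.3 in Six2Cre (1.30-fold, limma adjusted p = 0.0152). Without Six2Cre replicate 1 or 2 the calls were lost for Plxna1 (limma adjusted p = 0.0614 and 0.0706) and Plxnb1 (limma adjusted p = 0.106 and 0.116). Plxnb2, the most abundant plexin, stood at 91.6 and 93.8 against 73.5 and 77.4 (1.23-fold, limma adjusted p = 0.0249), a call that no fit without a library kept. Plxnb2 accounted for 49.2% and 50.2% of summed plexin FPKM in Six2TGC and for 52.7% and 54.0% in Six2Cre. Plxna3 and Plxna2 had no call, with log2 fold changes of 0.23 (95% interval 0.02 to 0.44) and 0.44 (0.06 to 0.83). The authors' deposited table called Plxna2 significant (q = 0.0201), at 2.06 and 1.83 FPKM in Six2TGC, against 1.02 and 1.31 in Six2Cre. Plxna4, Plxnb3 and Plxnc1 were under 1 FPKM in every library. Plxnc1, the receptor of Sema7a, stood at 0.299 and 0.545 in Six2TGC against 0.702 and 0.771 in Six2Cre, and Plxna4 at 0.332 and 0.346 against 0.584 and 0.576.

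Secreted class 3 semaphorins were dominated by Sema3f, which made up 80.8% to 81.9% of their summed FPKM in each of the 4 libraries. Sema3f stood at 152 and 138 FPKM in Six2TGC against 119 and 117 in Six2Cre (1.23-fold higher, limma adjusted p = 0.0312), a call that was kept in 1 of the 4 fits that left out a library. It thus rose slightly while its co-receptor gene Nrp2 fell. Sema3g stood at 6.63 and 4.42 in Six2TGC against 1.91 and 2.16 in Six2Cre (2.72-fold, limma adjusted p = 0.00616), and Sema3d at 3.31 and 3.94 against 1.38 and 1.44 (2.57-fold, limma adjusted p = 0.00498). Their calls held in 2 and 3 of those fits. Sema3b and Sema3c had no call, with log2 fold changes of 0.06 (95% interval -0.14 to 0.26) and -0.11 (-0.51 to 0.28). Sema3a, the ligand for Nrp1, was under the filter, at 0.902 and 0.685 FPKM in Six2TGC, against 0.187 and 0.214 in Six2Cre. Its mean was 3.96-fold higher in Six2TGC, without overlap and without a test.

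Among the semaphorins bound to the membrane, 3 of 10 tested rose and none fell by the test. Sema6d, a ligand of Plxna1, stood at 2.76 and 2.51 FPKM in Six2TGC against 0.985 and 1.15 in Six2Cre (2.47-fold, limma adjusted p = 0.00972). Sema4d, the ligand of Plxnb1, stood at 12.8 and 11.5 in Six2TGC against 8.02 and 7.84 in Six2Cre (1.53-fold, limma adjusted p = 0.00851), so ligand and receptor genes of that pair were both higher. Sema4b stood at 17 and 16.5 against 13.9 and 12.2 (1.28-fold, limma adjusted p = 0.0416). The Sema6d and Sema4d calls were lost without either Six2Cre library, and the Sema4b call without any of the 4. Sema4g, the most abundant gene of this group, had no call at 70.5 and 54.9 in Six2TGC against 78.5 and 82.1 in Six2Cre (log2 fold change -0.36, 95% interval -0.65 to -0.08, limma adjusted p = 0.0688). Without Six2TGC replicate 1 it was called lower, at -0.54 (limma adjusted p = 0.0105). Sema4c stood second, at 43.7 and 40.1 in Six2TGC, against 38.2 and 36.8 in Six2Cre, without a call. Sema4a, Sema5a, Sema5b, Sema6b and Sema6c, with log2 fold changes of -0.11 to 0.32, had none either. Summed over the group, levels were 160 ± 16.5 in Six2TGC, against 160 ± 0.240 in Six2Cre. Sema6a, Sema4f and Sema7a were below the filter, and Sema6a stood at 1.35 and 1.07 in Six2TGC against 0.718 and 0.627 in Six2Cre.

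Netrin genes were low, with a summed level of 13.6 ± 0.0291 FPKM in Six2TGC, against 13.7 ± 0.145 in Six2Cre, but the genes behind the sum were called in opposite directions. Ntng2, a lipid-anchored netrin-G that does not act through Dcc or Unc5 receptors, fell to 1.45 and 1.37 in Six2TGC, against 4.68 and 4.35 in Six2Cre. It was 3.21-fold lower (log2 fold change -1.19 with SE 0.14, limma adjusted p = 0.00127), a call held in all 4 fits that left out a library. Ntng2 lies on chromosome 2 at 29194726 to 29252993 (mm10, minus strand). Ntn3, a secreted netrin, stood at 7.64 and 7.70 in Six2TGC against 5.51 and 5.54 in Six2Cre (1.39-fold higher, limma adjusted p = 0.0325), a call kept in none of them. Ntng2 made up 10.6% and 10.04% of netrin FPKM in Six2TGC against 34.5% and 31.6% in Six2Cre. In their listed positions Ntng2 overlaps 6530402F18Rik and Ntn3 overlaps Tbc1d24, and neither neighbour had a call. Tbc1d24 stood at 5.73 and 5.62 in Six2TGC against 4.14 and 4.59 in Six2Cre, in the direction of Ntn3. Ntn1, the founding member of the family, had no call at 2.90 and 3.62 in Six2TGC against 2.04 and 2.71 in Six2Cre. Ntn4, Ntn5 and Ntng1 were below the filter. Of these, Ntn4, a secreted netrin of basement membranes, stood at 0.733 and 0.412 in Six2TGC against 0.183 and 0.180 in Six2Cre.

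Of the netrin receptors, Neo1 and Unc5c were the abundant ones, and they were called in opposite directions. Neo1, which encodes neogenin, stood at 39.1 and 36.8 FPKM in Six2TGC against 28.7 and 32.1 in Six2Cre (1.25-fold higher, limma adjusted p = 0.0375). Unc5c, a receptor linked to repulsion from netrin, stood at 23.0 and 21.5 against 26.3 and 30.3 (1.27-fold lower, limma adjusted p = 0.0405). Neither call was kept in any fit that left out a library, and that of Unc5c was also lost under median-ratio rescaling and quantile normalization (limma adjusted p = 0.0571 and 0.0616). Unc5b had no call, at 4.70 and 2.72 in Six2TGC against 6.04 and 4.73 in Six2Cre, and without Six2TGC replicate 1 it was called lower, at -0.77 (limma adjusted p = 0.0319). Dcc was at a trace level in every library, between 0.0633 and 0.119 in Six2TGC and between 0.136 and 0.174 in Six2Cre, as were Unc5a and Unc5d. The summed level of the netrin receptors was 64.2 ± 3.87 in Six2TGC, against 64.4 ± 4.41 in Six2Cre (SD, n = 2 per line).

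**Figure D5:**
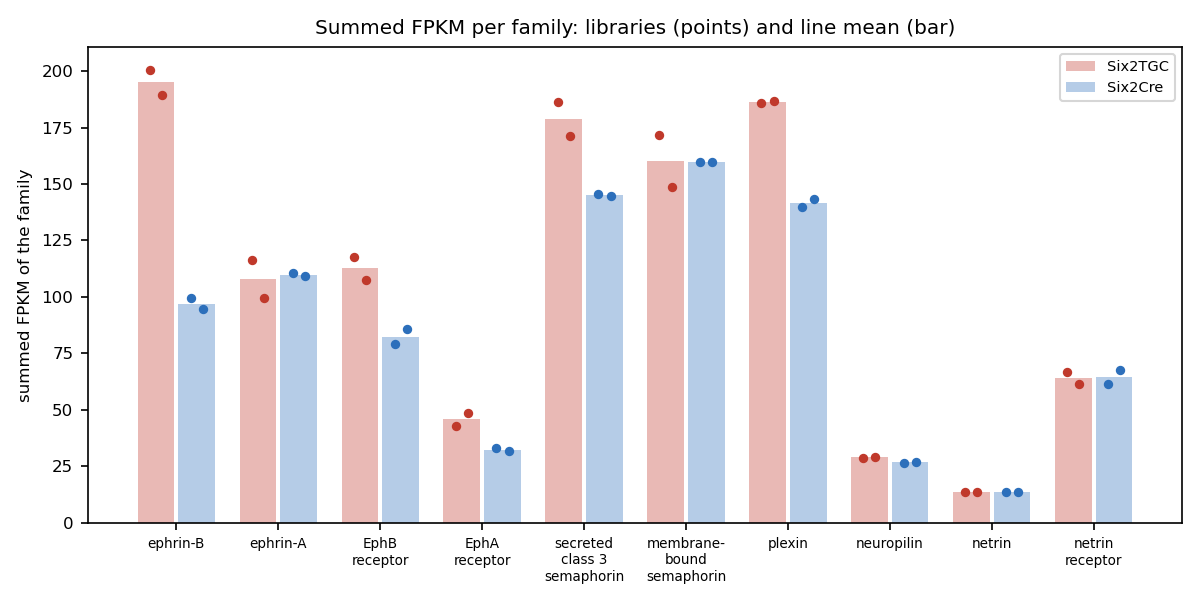
Summed FPKM of each family in every library (points) with the mean of each line (bar), Six2TGC left of Six2Cre. The ephrin-B, EphB, EphA, class 3 semaphorin, plexin and neuropilin sums are higher in both Six2TGC libraries. The ephrin-A, membrane-bound semaphorin, netrin and netrin receptor sums overlap between the lines.

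Genes that carry these signals inside the cell or modify them outside it were looked at as a separate list of 58 genes, of which 51 were tested. In Six2TGC 9 were higher and 6 lower, 29.4% called against 24.3% of all tested genes, and the median log2 fold change was 0.08. Among the tested genes the largest rise was in Dpysl3, a member of the collapsin response mediator family that acts downstream of semaphorins, at 4.09 and 5.48 FPKM in Six2TGC against 1.53 and 1.91 in Six2Cre (2.78-fold, limma adjusted p = 0.00449). Mical1, an actin-oxidizing enzyme bound to plexins, also rose (log2 fold change 0.55, limma adjusted p = 0.0102), as did Kalrn, Chn2 and Trio, regulators of the cytoskeleton, with log2 fold changes of 0.53, 0.53 and 0.51. Among the tested genes the largest fall was in Mical2, a relative of Mical1, at 6.87 and 8.27 in Six2TGC against 13.8 and 13.1 in Six2Cre (log2 fold change -0.75, limma adjusted p = 0.00385). Draxin, which binds netrins and Dcc, fell by 0.57 on the log2 scale, and Rgma, a ligand of neogenin, by 0.42. Erbb2, which associates with plexin-B receptors, fell by 0.42, and the actin-severing gene Cfl1 by 0.31. The counts were 4 higher and 6 lower without Six2TGC replicate 1, 9 and 3 without Six2TGC replicate 2, and 1 and 2 without Six2Cre replicate 2. Without Six2Cre replicate 1 limma called 0 in either direction, with 9 higher and 6 lower at an unadjusted p under 0.05. The authors' deposited table called 6 higher and 4 lower of 53 tested there, where 6.94% and 6.52% of all genes tested there were.

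Several members are also expressed by other kidney cells, so the levels of marker lists are given beside these results. The early differentiating nephron list summed to 303 and 305 FPKM in Six2TGC and to 130 and 127 in Six2Cre, with 8 of 11 tested genes higher and 3 lower. The progenitor list summed to 2038 and 2123 in Six2TGC, against 2803 and 2714 in Six2Cre, with 2 of 14 tested genes higher and 9 lower. The gap in Cited1, at 109 and 94.6 against 907 and 878, was larger than the gap in the sums. The direction of the progenitor sum thus rests on Cited1 as long as Six2 is counted, at 749 and 816 in Six2TGC against 545 and 533 in Six2Cre. With both Cited1 and Six2 left out, the sum of the other progenitor genes was again lower in both Six2TGC libraries. The part of these shifts in the members' changes was not tested. Among endothelial genes, Pecam1, Cdh5, Tie1, Kdr and Tek were at or below 1.31 FPKM in every library and their line means were lower in Six2TGC, where Efnb2, Nrp1, Plxnd1 and Ephb4 were higher. Pecam1 stood at 0.222 and 0.0463 in Six2TGC against 0.644 and 0.965 in Six2Cre. Of the 10 endothelial genes 2 were tested, Plvap and Egfl7. Plvap was called higher, at 15.6 and 9.52 in Six2TGC against 5.97 and 4.88 in Six2Cre. Egfl7 had no call, at 13.0 and 10.7 in Six2TGC against 17.1 and 14.3 in Six2Cre (limma adjusted p = 0.0676). The whole endothelial list summed to 30.8 and 20.9 in Six2TGC, against 27.4 and 25.2 in Six2Cre.

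Stromal genes summed to 150 and 123 FPKM in Six2TGC, against 113 and 79.9 in Six2Cre, with 3 of 8 tested genes higher (Foxd1, Pdgfra and Pdgfrb) and 1 lower (Meis1). Podocyte genes summed to 16.9 and 13.2 in Six2TGC, against 11.1 and 10.7 in Six2Cre, with Nphs1 under 0.1 in every library and 1 of 3 tested genes higher and 1 lower. Tubule genes summed to 11.8 and 9.13 in Six2TGC, against 36.8 and 25.9 in Six2Cre, with 3 of 5 tested lower and 0 higher, among them Slc34a1 at 0.0872 and 0.364 against 14.6 and 6.24. Ureteric bud genes summed to 32.7 and 26.2 in Six2TGC, against 49.6 and 51.6 in Six2Cre, with Ret under 0.2 in every library, Krt18 and Hoxb7 lower and Wnt11 higher. Blood and immune genes summed to 17.3 and 15.3 in Six2TGC, against 24.5 and 23.7 in Six2Cre, with 1 of 3 tested genes higher and 1 lower. Neural genes summed to 6.60 and 6.08 in Six2TGC, against 14.2 and 14.8 in Six2Cre, with Sox10 and Th listed at 0 throughout. The tubule, ureteric bud, blood and immune, and neural sums were thus lower in both Six2TGC libraries, as was the progenitor sum. The direction of the blood and immune sum rested on Cd68, at 7.32 and 8.01 in Six2TGC against 19.2 and 18.1 in Six2Cre. In the same list C1qa was called higher. That of the neural sum rested on Elavl4, at 4.16 and 4.04 in Six2TGC against 12.1 and 12.7 in Six2Cre. Within the ureteric bud list Wnt11 went the other way. Nrp2, Ntng2 and Efna5 were lower too, and the part of any of these cells in those falls was not tested.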

How the data were processed

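Reads of polyadenylated RNA from sorted cells were aligned and compared by the authors with HISAT2 and Cuffdiff on mm10, per the submitters' processing notes. Tool versions, annotation and strand use: not given in the sources used here. What the authors deposited holds a value per gene and library, read as FPKM from Cuffdiff's layout, and a p-value and q-value of their own comparison, per the file headers. FPKM depends on how reads shared between genes were assigned, and 18 of the 65 members share their listed locus with another gene. Coordinates in the table count from 0, and 1 was added to each start.

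The members and gene lists were chosen with earlier results of these data known. Genes with a mean of at least 1 FPKM were tested with limma 3.58.1 (R 4.3.3) on log2(FPKM + 1), with trend and robust empirical Bayes, two-sided, as Six2TGC over Six2Cre, at a Benjamini-Hochberg adjusted p under 0.05. The pseudocount shrinks log2 changes of low genes, while a change written as -fold is a ratio of mean FPKM. An exact permutation of 2 against 2 libraries cannot go below p = 0.333. No covariate was used, and batches cannot be told apart from the lines. Relative depth came from the most frequent ratio between libraries among genes up to 0.4 FPKM, 1309 to 1511 of them. No pair of libraries shared a value above 0, so none was a duplicate. On 10 simulated sets of 11917 genes with 200 changed, the test recovered 90.1% of changes of 1 and 99.8% of changes of 2 on the log2 scale, with 5.02% false calls. These sets drew independent values with variances from limma's own fit, so a false share near the threshold was built in. They held no changes under 1, where most changes of the members lie. Every member could be named, other list genes by the size of their change (up to 5 called in each direction), and markers where a list's count needed them. Alternatives were the pseudocount, the filter, rescaling, plainer limma settings, a replicate block, leaving out each library and the authors' own calls. Promoter windows came from RefSeq (GRCm38.p6). Values of a few single marker genes are not reported here.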

Additional observations from a re-analysis of the deposited data

How the results depend on the processing

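Signs of all 26 called members were the same in every alternative in which they were tested (238 of 238 results for the higher and 43 of 43 for the lower members). Most of these signs were fixed in advance. The lines did not overlap for any of the 26, so leaving out a library or changing the pseudocount could not turn a sign. The filter, the plainer limma settings and the replicate block leave the fold change as it is. Only the rescaling fits could have turned one. Calls depended on the libraries and on the test settings. Leaving out each library in turn gave 4 to 15 higher members and 3 to 6 lower, 0 to 9 higher and 0 to 6 lower effector genes, and 481 to 1222 higher and 472 to 1514 lower genes of all tested. With a library left out, the lone library of its line is assumed to vary like the others. Called in all 4 of these fits were Efna5, Efnb1, Nrp1, Nrp2, Ntng2 and Plxnd1, in 3 Epha4 and Sema3d, and in none Ephb6, Neo1, Ntn3, Plxnb2, Sema4b and Unc5c. The authors' deposited table gave 14 higher members, and 844 higher and 793 lower genes of all tested. Limma without trend and robust settings gave 15 higher and 3 lower members and 5 higher effector genes. Of all tested genes, 945 were higher and 1090 lower in that fit. The members that lost a call in it were Ephb4, Epha2, Ephb2, Plxnb2, Sema3f, Neo1, Sema4b and Unc5c (limma adjusted p = 0.0515 to 0.0900). Without the filter on low values 18 of 65 members were higher and 3 lower, with 1080 and 1299 of 17341 genes higher and lower. Of 470 results for single members, 72 lost and 3 gained a call and 4 turned sign, all 4 for members without a call. Leaving out a library, the log2 fold change ran from -0.363 to 0.063 for Efna1, -0.084 to 0.339 for Efna3 (-0.0033 without Six2Cre replicate 2) and -0.316 to 0.086 for Sema3c. The replicate numbers did not pair the libraries (correlation of same-numbered deviations across genes -0.0399), and with the replicate block 21 members were higher and 3 lower, 8 and 5 effector genes, and 1179 and 1534 of all tested genes. Neo1 and Unc5c lost their calls under it (limma adjusted p = 0.0542 and 0.0569). Depth limits the 21 members under the filter, whose values are given without a test.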

Other observations

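Some members lie beside each other on a chromosome. Efna1, Efna3 and Efna4 lie within a short stretch of chromosome 3 (89271730 to 89338028, mm10), and none of the 3 was called, with log2 fold changes of -0.15, 0.13 and 0.12. On chromosome 5, Sema3d (12383166 to 12588943) was called higher at 0.94, while Sema3c (17574816 to 17730267) had no call at -0.11, and Sema3a (13396784 to 13603485) and Sema3e (14025276 to 14256689) between them were below the filter. On chromosome 9, Sema3f was called higher at 0.29 and its near neighbour Sema3b had no call at 0.06.

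The order of the 65 members by mean level was nearly the same in both lines (Spearman's rho 0.968 across genes, which are not independent replicates and share the same libraries). Nrp2 ranked 41 in Six2TGC and 22 in Six2Cre, Efnb2 ranked 20 and 33, and Ntng2 ranked 42 and 31, in the same order of lines.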
